A study of Mus musculus with 14 samples.

Results

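Wnt ligands, their Frizzled and LRP receptors and the factors that tune them were described in sorted islet cells of male C57BL/6J mice aged 7 months. Members were the genes of the deposited table whose symbols belong to the Wnt, Fzd, Lrp5/Lrp6, Dkk, Sfrp, Rspo, Lgr4 to Lgr6, Znrf3/Rnf43, Axin, Ctnnb1 and Tcf/Lef families. The rule found 55 of 52459 genes. Dispersed pancreatic islets, all of 1 strain, sex and age, had been sorted by flow cytometry on acidic beta-galactosidase activity, a lysosomal activity used as a marker of cellular senescence. The 7 libraries of beta-galactosidase-positive cells are called positive and the 7 libraries of beta-galactosidase-negative cells negative. Both sets were numbered 1 to 7. No transgene, drug or diet is named in the labels, and whether a library came from 1 animal or a pool is not given in the sources used here.

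Wnt proteins are secreted, lipid-modified ligands that bind Frizzled receptors. With the co-receptors LRP5 or LRP6 they stop a cytoplasmic complex built on Axin from destroying beta-catenin, which then enters the nucleus and works with Tcf/Lef factors. Other Wnt signals run through Frizzled without beta-catenin and set cell polarity and movement. In the pancreas the pathway is known for its part in growth during development, and Wnt4 and variants near Tcf7l2 are known from work on islet function and on diabetes risk.

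Total counts ran from 15585779 to 24577025 reads in positive and from 11060144 to 23045934 reads in negative libraries. Levels are given as CPM, counts scaled to a common library size, after TMM scaling, a correction for differences in library make-up. Transcripts of hormone cells filled both groups, with beta cell markers summing to 100451 to 130846 CPM in positive and 104639 to 155937 CPM in negative libraries. Markers of some other cells moved with the sort, while those of others mostly did not. Of 9 tested alpha cell markers 1 fell, of 10 ductal markers 1 rose, and of 4 pancreatic polypeptide cell markers 0 were called. Of 18 tested endothelial markers 18 rose, and their sum was 448 to 1495 CPM in positive and 8.57 to 83.5 CPM in negative libraries. Cldn5, one of the endothelial list, had no read in any negative library. Of 18 tested macrophage and dendritic cell markers 18 rose, with sums of 109 to 1094 and 18.9 to 30.4 CPM in the positive and the negative libraries. Libraries numbered 6 and 7 held the most endothelial RNA of their groups, with sums of 1431 and 1495 CPM in positive and 75.2 and 83.5 CPM in negative cells, and the positive ones of these held the most macrophage RNA. Of 3 tested delta cell markers 2 rose, with sums of 309 to 2199 CPM in positive and 82.0 to 436 CPM in negative libraries. Of 12 tested acinar markers 5 fell (11 with the replicate number as a block), with sums of 33.5 to 980 CPM in positive and 148 to 1512 CPM in negative libraries. Of 12 tested stellate, pericyte and fibroblast markers 6 rose, and their sums were 69.0 to 270 CPM in positive libraries. Negative 3 carried 1477 CPM of stellate, pericyte and fibroblast markers, against 16.5 to 76.2 CPM in the other negative libraries. These are mixed cells, so fewer cells of a type and less RNA per cell cannot be told apart in any result that follows.

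The most abundant ligand, Wnt4, and the weaker Wnt5b fell in positive cells, while the receptors Fzd4 and Fzd5 and the ligand Wnt9a rose. Of the 55 members, 24 had enough reads to be tested, 27 had reads but too few, and 4 (Wnt1, Wnt8b, Wnt10a and Wnt16) had none in any library. In edgeR's quasi-likelihood fit over all genes, where a call is a Benjamini-Hochberg adjusted p below 0.05, 3 of the 24 tested members rose and 2 fell. Among all 16350 genes tested, 6.4% rose and 1.63% fell (8.03% in either direction). The median log2 fold change was 0.09 over the 24 members and 0.00037 over all genes. The replicate numbers were taken to pair the libraries, a pairing inferred from their correlation, and the fit above leaves it out. With the number as a block in the fit 7 of the 24 rose and 3 fell, beside 11.8% and 7.77% of all genes (19.6% in either direction). Without the 4 libraries numbered 6 and 7, only Fzd4, Wnt4 and Wnt5b were still called among the members, beside 581 of 16345 genes.

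**Figure D1:**
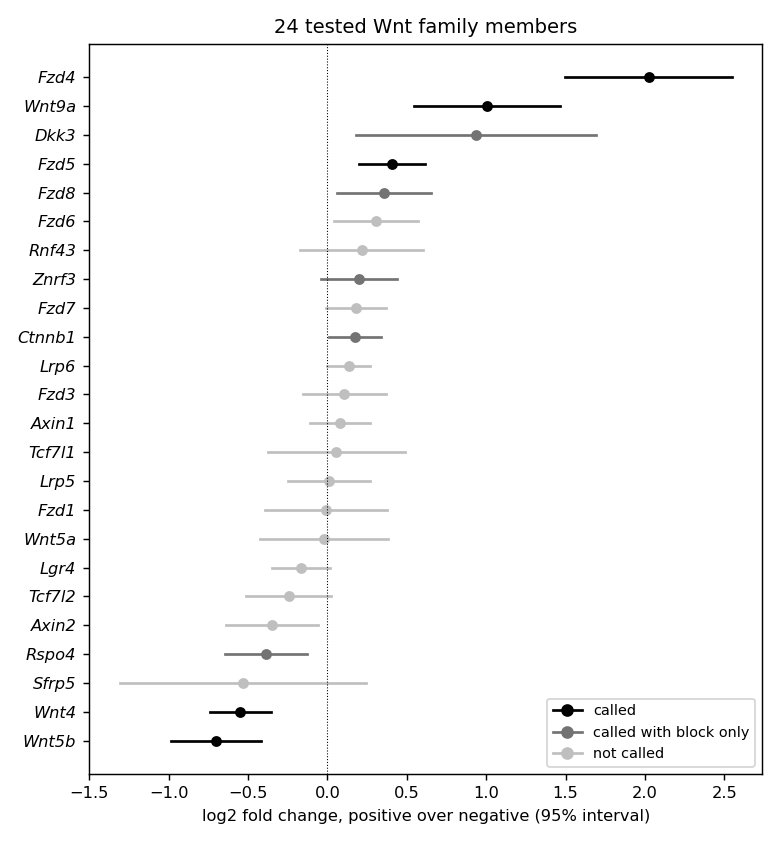
Log2 fold change of each of the 24 tested members, positive over negative (x axis), with its 95% interval. Fzd4 stands highest at 2.02 and Wnt5b lowest at −0.70; black marks members called, dark grey those called only with the replicate block and light grey those not called.

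Promoter sequence is shown for Wnt4 and Fzd4, the members with the clearest fall and rise, and for the start of Wnt5b that holds a Tcf/Lef motif. The windows run from 250 bases before to 50 after a transcript start, are written 5′ to 3′ on the gene's strand, and come from RefSeq on GRCm38.p6. Capitals mark the GC box GGGCGG and the Tcf/Lef core CTTTGAT or CTTTGAA, each on either strand. All capitals in the first pair are GC boxes.
Wnt4, chr4:137277385-137277684, plus strand: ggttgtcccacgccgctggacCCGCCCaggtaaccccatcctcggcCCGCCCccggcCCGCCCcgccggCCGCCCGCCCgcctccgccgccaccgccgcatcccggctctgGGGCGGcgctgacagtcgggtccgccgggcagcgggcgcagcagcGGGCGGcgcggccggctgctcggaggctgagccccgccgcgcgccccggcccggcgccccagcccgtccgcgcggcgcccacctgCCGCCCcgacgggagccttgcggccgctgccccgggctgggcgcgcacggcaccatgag
Fzd4, chr7:89404116-89404415, plus strand: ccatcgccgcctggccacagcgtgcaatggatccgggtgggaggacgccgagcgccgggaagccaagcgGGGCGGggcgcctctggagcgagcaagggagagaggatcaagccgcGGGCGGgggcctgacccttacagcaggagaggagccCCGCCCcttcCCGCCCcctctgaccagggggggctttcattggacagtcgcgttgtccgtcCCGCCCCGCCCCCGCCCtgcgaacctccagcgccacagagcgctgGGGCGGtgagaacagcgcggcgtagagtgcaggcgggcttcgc
Wnt5b, chr6:119449337-119449636, minus strand: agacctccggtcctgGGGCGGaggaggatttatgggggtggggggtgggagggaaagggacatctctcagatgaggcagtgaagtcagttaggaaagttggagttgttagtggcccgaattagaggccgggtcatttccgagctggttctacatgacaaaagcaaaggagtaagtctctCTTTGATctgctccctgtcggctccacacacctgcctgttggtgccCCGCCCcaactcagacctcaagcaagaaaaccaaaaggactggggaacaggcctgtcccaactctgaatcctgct
In the Wnt5b window the capitals CTTTGAT are the Tcf/Lef core and the others are GC boxes. RefSeq windows were found for 36 of the 55 members, 46 windows in all. The Tcf/Lef core stood in 6.52% of these windows, those of Wnt5b, Wnt11 and Dkk1, and in 8.65% of all 32851 promoter windows. GC boxes stood in 71.7% of the member windows and 35.7% of all windows, and the median GC content was 67.5% against 52.7%. The windows of Fzd4, Fzd5, Wnt4 and Wnt9a, members called in opposite directions, all held GC boxes and none held the Tcf/Lef core. Wnt5b has 3 annotated starts with a window, and counts per gene do not tell which was used.

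Wnt4, a ligand known from kidney and gonad development and present in islet cells, was the leading Wnt message (chromosome 4, 137277489 to 137299726, GRCm38). It ranged from 140 to 204 CPM with a median of 176 in positive libraries, and from 238 to 286 CPM with a median of 251 in negative libraries. Every positive library lay below every negative one, and the positive library was lower in 7 of 7 pairs. The log2 fold change was −0.55 ± 0.09 (SE, adjusted p = 0.000822 by edgeR), with a range of −0.60 to −0.51 when single libraries were left out. Non-overlapping ranges in this direction were found for 0.355% of all genes tested, and 6.93% were lower in all 7 pairs. Positive 6 and 7 had the lowest values, 143 and 140 CPM, and without the libraries numbered 6 and 7 the log2 fold change was −0.48 (adjusted p = 0.0044).

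Of 15 beta cell markers 2 also fell (8 with the replicate block), beside 1.63% of all genes (7.77% with the block). Their median log2 fold change was −0.36, and their sum was lower in positive cells in 6 of 7 pairs. The exception was the pair numbered 3, whose negative library had the smallest beta cell sum of its group, 104639 CPM, with Wnt4 at 251 CPM. Whether the mix of cells had a part in the fall of Wnt4 was not tested.

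Wnt5b, a ligand mostly linked to signalling without beta-catenin, was far less abundant (chromosome 6, 119432531 to 119544347). It had 2.35 to 3.88 CPM with a median of 2.97 in positive libraries and 4.07 to 6.14 CPM with a median of 5.05 in negative libraries. The groups did not overlap, and all 7 pairs were lower in positive cells. Its log2 fold change was −0.70 ± 0.13 (SE, adjusted p = 0.0026 by edgeR), and −0.70 (adjusted p = 0.046) without the libraries numbered 6 and 7.

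Wnt9a moved the other way (chromosome 11, 59306928 to 59333552). This ligand, known from joint development, had 2.26 to 4.08 CPM with a median of 3.14 in positive libraries and 1.08 to 2.77 CPM with a median of 1.32 in negative libraries. It was higher in all 7 pairs, but the groups overlapped through negative 3, at 2.77 CPM, the library rich in stromal markers. The log2 fold change was 1.00 ± 0.22 (SE, adjusted p = 0.0070 by edgeR), and it was 0.93 and no longer called without the libraries numbered 6 and 7 (adjusted p = 0.123). Its neighbour Wnt3a, 16.175 kb away in the annotation, had 0 reads in positive and 1 read in negative libraries.

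Wnt5a, the close relative of Wnt5b, did not pass the test, with 1.83 to 3.05 CPM in positive and 1.54 to 3.31 CPM in negative libraries and a log2 fold change of −0.02 (95% interval −0.43 to 0.38). The other 15 ligands were not tested. Of these, Wnt11 had 20 reads in positive and 48 in negative libraries, with 37 of the negative reads in negative 3 alone, and Wnt2 had 6 in positive and 16 in negative libraries, with 13 of the negative reads in negative 3 too. All others had at most 19 reads in either group. Counted per kb of exon, Wnt4 made up 92.5 to 95.1% of the summed ligand level in positive libraries and 93.6 to 96.5% in negative libraries. The summed ligand level was 36.0 to 51.2 CPM per kb in positive and 59.3 to 71.3 CPM per kb in negative libraries.

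**Figure D2:**
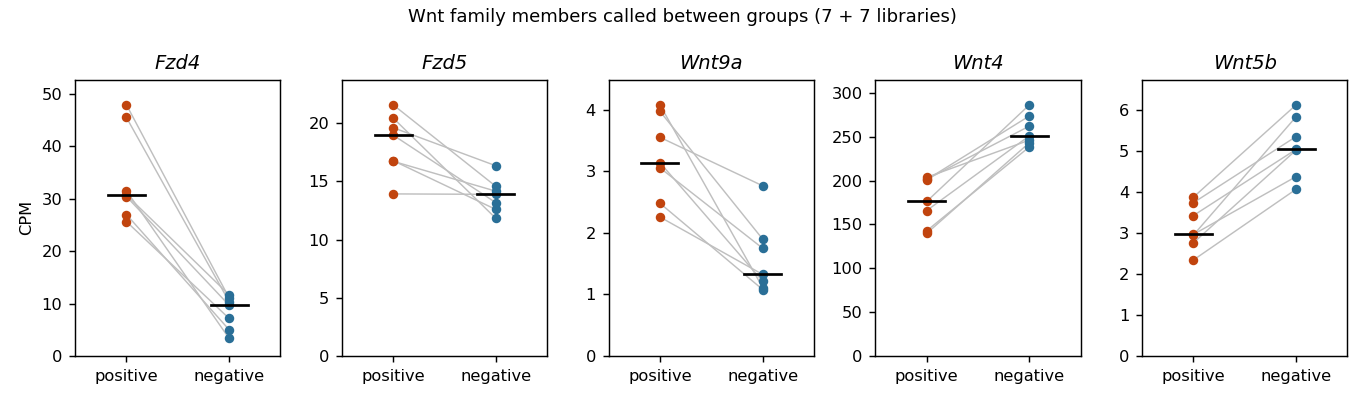
CPM (y axis) of the 5 called members in each positive (left, orange) and negative (right, blue) library, with grey lines joining libraries of the same number and black bars at the medians. Fzd4, Wnt4 and Wnt5b show no overlap between groups, while Fzd5 and Wnt9a overlap.

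Fzd4, a receptor best known from retinal vessels, where it also binds the ligand norrin, rose the most of the tested members (chromosome 7, 89404355 to 89413134). It ranged from 25.6 to 47.9 CPM with a median of 30.7 in positive libraries and from 3.33 to 11.7 CPM with a median of 9.67 in negative libraries. The groups did not overlap, and all 7 pairs were higher in positive cells. The log2 fold change was 2.02 ± 0.25 (SE, adjusted p = 0.000132 by edgeR), with 1.88 to 2.11 when single libraries were left out. Ranges that did not overlap in this direction were found for 3.5% of all genes tested, and 11.1% were higher in all 7 pairs.

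Endothelial sums were also higher in every positive library than in every negative one. Their part in the level of Fzd4 was not tested. Positive 6 and 7, which had the largest endothelial sums, had 45.5 and 47.9 CPM of Fzd4. These libraries also had the largest macrophage and dendritic cell sums, 1094 and 769 CPM. The other positive libraries, with endothelial sums of 448 to 1135 CPM, had 25.6 to 31.5 CPM of Fzd4. Within these, positive 2 (endothelial sum 1135 CPM) had 31.5 CPM and positive 3 (473 CPM) had 30.7 CPM. Among negative libraries, those numbered 1 to 5 had endothelial sums of 8.57 to 17.5 CPM and Fzd4 at 3.33 to 11.7 CPM. Negative 6 and 7, with endothelial sums of 83.5 and 75.2 CPM, had 10.4 and 11.1 CPM of Fzd4, inside the range of the other negative libraries. Without the libraries numbered 6 and 7 the log2 fold change of Fzd4 was 1.97 (adjusted p = 0.00065). Norrin itself, encoded by Ndp, had no read in any library.

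**Figure D3:**
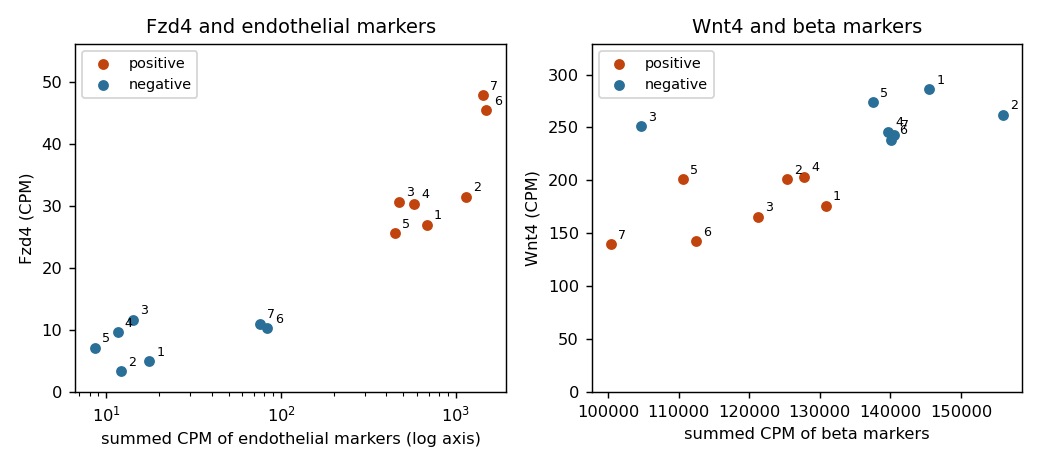
Left, CPM of Fzd4 against the summed CPM of 19 endothelial markers (log axis); right, CPM of Wnt4 against the summed CPM of 15 beta cell markers. Points are libraries with their numbers, positive in orange and negative in blue; Fzd4 is highest in positive 6 and 7, at 45.5 and 47.9 CPM, and negative 3 combines the lowest negative beta cell sum with Wnt4 at 251 CPM.

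Fzd5, a Frizzled known from gut and eye development, rose by less (chromosome 1, 64730558 to 64737751). It had 13.9 to 21.6 CPM with a median of 18.98 in positive libraries and 11.8 to 16.3 CPM with a median of 13.9 in negative libraries, with overlap between the groups. It was higher in all 7 pairs, by 0.41 ± 0.10 on the log2 scale (SE, adjusted p = 0.0145 by edgeR). Positive 6 and 7 were again the highest, at 21.6 and 20.5 CPM, and without the libraries numbered 6 and 7 the value was 0.30 and not called (adjusted p = 0.25). A transcript model of unproven status overlaps Fzd5 on the other strand, and the strand setting of the counts is not given in the sources used here.

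Fzd8 was called only with the replicate block. It had 7.60 to 11.2 CPM with a median of 9.74 in positive libraries and 4.63 to 8.82 CPM with a median of 7.76 in negative libraries, and it was higher in all 7 pairs. Its log2 fold change was 0.36 ± 0.14 (SE, adjusted p = 0.145 by edgeR; 0.0089 with the block). The other tested Frizzleds, Fzd1, Fzd3, Fzd6 and Fzd7, had log2 fold changes of −0.01 to 0.31 and were not called in either fit. Fzd3, a receptor of axon guidance and polarity, was the leading Frizzled by group means per kb of exon, though Fzd4 had the larger share in positive 2, 6 and 7. Fzd3 had 55.7 to 92.9 CPM in positive and 53.2 to 82.8 CPM in negative libraries. Fzd7 had 12.4 to 17.2 and 11.3 to 14.8 CPM in the positive and the negative libraries. Fzd2, Fzd9 and Fzd10 had at most 19 reads over the 7 libraries of either group.

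By level per kb of exon, Fzd4 made up 18.4 to 27.6% of all Frizzled message in positive libraries and 3.55 to 10.6% in negative libraries. Fzd3 made up 21.0 to 30.1% in positive and 28.1 to 36.7% in negative libraries. The summed Frizzled level was 19.3 to 26.1 CPM per kb in positive and 13.98 to 19.2 CPM per kb in negative libraries. Fzd5, which rose in CPM, held 10.4 to 12.4% of that sum in positive and 10.8 to 14.4% in negative libraries.

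**Figure D4:**
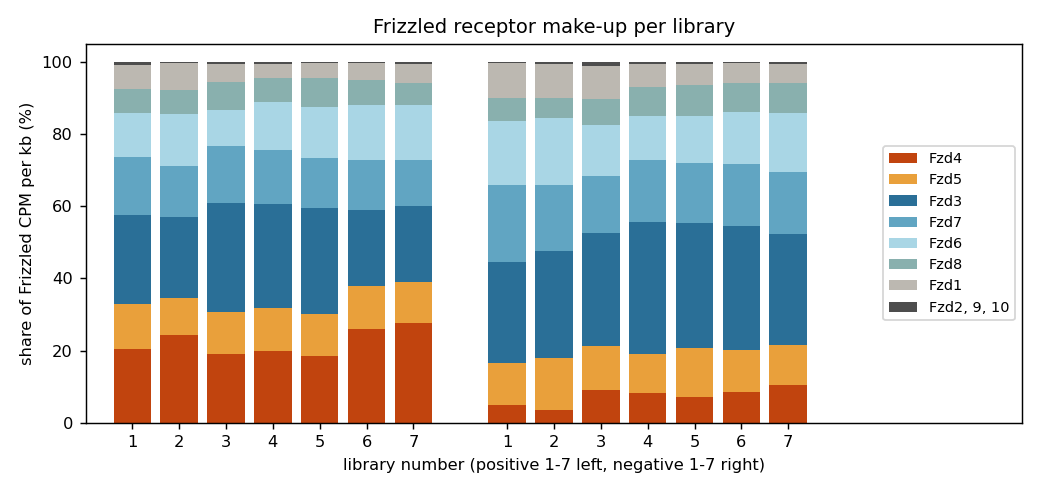
Share of each Frizzled gene in the summed Frizzled level (CPM per kb of exon, y axis in percent) in each library, positive 1 to 7 on the left and negative 1 to 7 on the right. Fzd4 holds 18.4 to 27.6% of positive and 3.55 to 10.6% of negative bars.

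The co-receptors did not pass the test. Lrp6 had 89.2 to 108 CPM in positive and 79.4 to 103 CPM in negative libraries, and a log2 difference of 0.13 ± 0.06 (SE, adjusted p = 0.23 by edgeR; 0.081 with the block). Lrp5 had 26.3 to 34.0 CPM in positive and 18.5 to 39.0 CPM in negative libraries, with a log2 fold change of 0.01 and a 95% interval of −0.25 to 0.27.

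R-spondins are secreted proteins that bind Lgr4 to Lgr6 and keep the ubiquitin ligases Znrf3 and Rnf43 from removing Frizzleds. Rspo4, known from nail growth in people, had a mean of 19.3 CPM per kb of exon in positive and 25.2 CPM per kb in negative libraries. It ranged from 38.5 to 53.3 CPM with a median of 44.3 in positive libraries and from 40.2 to 74.2 CPM with a median of 60.5 in negative libraries. The groups overlapped through negative 1, at 40.2 CPM, and narrowly through negative 2, at 53.2 CPM against 53.3 CPM in positive 4. The pair numbered 1 was the only one not lower in positive cells. The log2 fold change was −0.39 ± 0.12 (SE, adjusted p = 0.063 by edgeR), and Rspo4 was called with the block (adjusted p = 0.0025), by DESeq2 (−0.39, adjusted p = 0.0308), without negative 1 (−0.48, adjusted p = 0.0065) and without positive 4 (adjusted p = 0.0499). Rspo1, Rspo2 and Rspo3 had at most 11 reads in either group.

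Znrf3, one of the ligases, had 15.3 to 23.9 CPM with a median of 19.2 in positive libraries and 13.9 to 21.2 CPM with a median of 16.6 in negative libraries. The groups overlapped widely, but the positive library was higher in all 7 pairs, and Znrf3 was called only with the block (log2 fold change 0.20 ± 0.11, SE, adjusted p = 0.33 by edgeR; 0.030 with the block). Rnf43 was not called in either fit, at 2.44 to 4.16 CPM in positive and 1.76 to 4.15 CPM in negative libraries. Lgr4, the only one of the 3 Lgr receptors with enough reads, had 24.7 to 34.3 CPM in positive and 27.0 to 37.3 CPM in negative libraries (log2 fold change −0.17 ± 0.09, SE, adjusted p = 0.28 by edgeR; 0.053 with the block). Lgr5, a stem cell marker of the gut, had 31 reads in positive and 31 reads in negative libraries, and Lgr6 had 55 and 53 in the same order.

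Among secreted inhibitors, Dkk1 and its close relatives act on LRP5 and LRP6, and Sfrp proteins bind Wnts. Sfrp5, found in fat and endodermal tissue, had the highest level per kb of exon of the Dkk and Sfrp members. Frzb, a secreted Wnt binder outside that group, was higher, at 103 to 186 CPM in positive and 140 to 207 CPM in negative libraries, and was not called (log2 fold change −0.25 ± 0.12, SE, adjusted p = 0.239 by edgeR). Sfrp5 had 2.87 to 16.4 CPM with a median of 9.23 in positive libraries and 8.16 to 20.3 CPM with a median of 9.80 in negative libraries. Positive 1 and 3 were lowest, at 3.37 and 2.87 CPM, and negative 1, 2 and 3 were among the highest, at 20.3, 17.6 and 15.99 CPM. The log2 fold change of −0.53 ± 0.36 was not called (SE, adjusted p = 0.44 by edgeR). Alpha cell markers summed to 3741 and 6034 CPM in positive 3 and 1, the lowest of all libraries, and to 25878 to 28510 CPM in negative 1, 2 and 3; their part in the level of Sfrp5 was not tested.

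Dkk3, a relative of the Dkk family whose part in Wnt signalling is unsettled, had 0.38 to 2.49 CPM in positive and 0.37 to 0.85 CPM in negative libraries. It was called only with the block (log2 fold change 0.93 ± 0.36, SE, adjusted p = 0.134 by edgeR; 0.049 with the block), and positive 1 alone held the highest value. Dkk2, a secreted inhibitor, had too few reads for the test, with 109 reads in positive libraries, present in 7 of 7, and 28 reads in negative libraries, 23 of them in negative 3. Without the filter on low counts its log2 fold change was 1.75 (adjusted p = 0.34 by edgeR). Sfrp1 had 34 reads in positive and 56 in negative libraries, and Dkk1, Dkk4, Sfrp2 and Sfrp4 had at most 7 in either group.

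Ctnnb1, which encodes beta-catenin, was the most abundant member per kb of exon, at a mean of 191 CPM per kb in positive and 169 CPM per kb in negative libraries (chromosome 9, 120929216 to 120960507). It ranged from 886 to 1040 CPM with a median of 993 in positive libraries and from 681 to 992 CPM with a median of 912 in negative libraries. The groups overlapped, yet the positive library was higher in all 7 pairs. The log2 fold change of 0.18 ± 0.08 was called only with the block (SE, adjusted p = 0.20 by edgeR; 0.035 with the block). Exons of Ulk4 overlap those of Ctnnb1 on the other strand. Axin1, a scaffold of the complex that destroys beta-catenin, had 71.2 to 99.7 CPM in positive and 65.2 to 93.0 CPM in negative libraries and was not called, although it too was higher in 7 of 7 pairs (0.08 ± 0.09, SE, adjusted p = 0.67 by edgeR; 0.16 with the block).

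Axin2, a feedback inhibitor that Wnt signalling through beta-catenin switches on in many tissues, had 4.22 to 6.38 CPM with a median of 5.85 in positive libraries and 5.63 to 10.1 CPM with a median of 6.76 in negative libraries. It was lower in 5 of 7 pairs and not called, at −0.35 ± 0.14 on the log2 scale (SE, adjusted p = 0.146 by edgeR; 0.076 with the block). An antisense gene overlaps it. Of the nuclear partners of beta-catenin, Tcf7l2 had 4.40 to 6.89 CPM in positive and 5.08 to 7.87 CPM in negative libraries (log2 fold change −0.24 ± 0.13, SE, adjusted p = 0.29 by edgeR), and Tcf7l1 had 2.86 to 5.13 and 2.58 to 6.66 CPM in the positive and the negative libraries.

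Tcf7 and Lef1, known above all from lymphocytes, were too low for the test. Tcf7 had 81 reads in positive and 18 in negative libraries, at 0.28 to 1.09 CPM in positive and 0 to 0.37 CPM in negative cells, and was higher in all 7 pairs. Without the filter on low counts it was called, at 1.97 ± 0.49 on the log2 scale (SE, adjusted p = 0.0166 by edgeR), and DESeq2 called it too (2.03, adjusted p = 0.0028). Lef1 had 17 reads in positive and 6 in negative libraries. Lymphocyte markers summed to 4.84 to 26.6 CPM in positive and 1.66 to 3.78 CPM in negative libraries. Most of the positive reads were of Ptprc, which myeloid cells share (1135 reads in positive and 15 in negative libraries), and most of the negative reads were of Cd79a, a B cell gene that fell (88 reads in positive and 211 in negative libraries). The T cell genes Cd3e, Cd3g and Trac had 0, 1 and 1 reads in all positive libraries and 0 in all negative libraries, and Cd3d had 0 reads in positive and 4 in negative libraries. Their part in the level of Tcf7 was not tested.

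**Figure D5:**
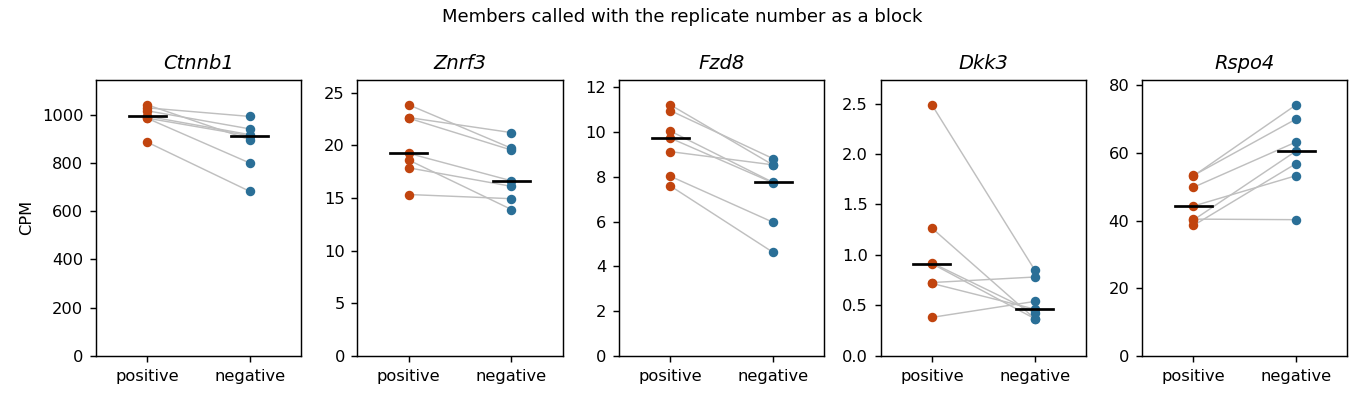
CPM (y axis) of Ctnnb1, Znrf3, Fzd8, Dkk3 and Rspo4 in each positive (left, orange) and negative (right, blue) library, with lines joining libraries of the same number and black bars at the medians. The groups overlap for all 5, and the lines of Ctnnb1, Znrf3 and Fzd8 fall toward negative in all 7 pairs.

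Beyond the members, 104 other genes of the pathway were in the table, of which 85 were tested, 8 rose and 3 fell, with a median log2 fold change of 0.01, beside 6.4% and 1.63% of all genes. With the block 13 rose and 10 fell, beside 11.8% and 7.77% of all genes. The core machinery showed no call: of 28 tested genes of the Dishevelled proteins and the destruction complex 0 were called, with 3 higher and 3 lower under the block. Under the block Gsk3b, Apc and Tnks were higher, and Btrc, Dact1 and Dact2 were lower. Gsk3b, a kinase that marks beta-catenin for destruction, had 131 to 205 CPM in positive and 118 to 172 CPM in negative libraries. Its log2 fold change was 0.22 (adjusted p = 0.263 by edgeR, and 0.0024 with the block). By DESeq2, which fitted all 31875 genes with a read, 2079 genes were called, 17 of them among these pathway genes.

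Of 11 tested secretion and extracellular factors 2 rose and 1 fell. Gpc4, a glypican of the cell surface, had 82.3 to 105 CPM in positive and 104 to 120 CPM in negative libraries and fell by 0.25 on the log2 scale (adjusted p = 0.0081 by edgeR). Tspan12, a partner of Fzd4 in norrin signalling, rose (log2 fold change 1.46, adjusted p = 0.044), as did Apcdd1, an inhibitor and target of the pathway (0.51, adjusted p = 0.041). Tspan12 was not called when positive 2, 6 or 7 or negative 1, 4, 5, 6 or 7 was left out, nor Apcdd1 when any library but positive 4 and 5 and negative 3 and 5 was left out, with adjusted p up to 0.103 and 0.109. Wls, which carries Wnts to the cell surface, was not called, at 251 to 332 CPM in positive and 223 to 310 CPM in negative libraries.

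Of 16 tested non-Frizzled receptors and polarity genes, Prickle2 (log2 fold change 1.76) and Vangl1 (0.80) rose and Invs fell by 0.28 on the log2 scale. Leaving out positive 6 or 7 or negative 2, 4, 5 or 6 ended the call of Vangl1, and leaving out positive 3, 4, 6 or 7 or negative 2 ended that of Invs, with adjusted p up to 0.067 and 0.058. Prickle2 had 11.7 to 31.6 CPM in positive and 3.85 to 8.81 CPM in negative libraries, with no overlap. Of 20 tested nuclear co-factors, Sox7 and Sox17, factors known from endothelial cells, rose with log2 fold changes of 4.90 and 4.72, folds that are uncertain since negative libraries held at most 0.665 and 0.285 CPM. Tle2, a co-repressor, fell by 0.38. Of 11 tested Wnt targets, Jag1 (1.48) and Tcf4 (0.67), a gene distinct from Tcf7l2, rose, as did Apcdd1. Myc and Ccnd1, targets in growing tissue, were not called, at 17.9 to 24.6 and 57.0 to 118 CPM in positive libraries and 10.8 to 31.1 and 61.2 to 165 CPM in negative libraries. Ccnd1 was lower in 7 of 7 pairs and called with the block (−0.36, adjusted p = 0.000442).

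In this wider list, without the 4 libraries numbered 6 and 7, 5 genes rose and 0 fell. Of all 16345 genes tested in that fit, 536 rose and 45 fell. Sox7, Sox17, Prickle2, Jag1 and Tcf4 were higher in positive libraries, as were the marker sums of more than 1 cell type. Endothelial sums were 448 to 1495 CPM in positive and 8.57 to 83.5 CPM in negative libraries. Macrophage and dendritic cell sums were 109 to 1094 and 18.9 to 30.4 CPM in the same order. Delta cell sums were 309 to 2199 CPM in positive and 82.0 to 436 CPM in negative libraries. The part of any of these cells in the level of the 5 genes was not tested.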

How the data were processed

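The authors deposited raw read counts per gene, 1 column per library; totals differ between libraries and all values are whole. Per the submitters' processing notes, Subread placed single reads on GRCm38 and featureCounts counted them; versions, annotation, strand setting and the handling of reads matching several genes are not given in the sources used here. Per the labels' protocols, polyadenylated RNA was made into libraries with a directional kit.

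The test ran in edgeR 4.0.16 (R 4.3.3) on the counts of all 14 libraries: filterByExpr kept 16350 genes, TMM factors were 0.969 to 1.03, and the robust quasi-likelihood F-test had group as its only term (two-sided, Benjamini-Hochberg adjusted over all genes). Standard errors came from the F statistic. The fit was checked on simulated counts with 50 genes changed at each fold. It recovered 52% of 1.5-fold, 68% of 2-fold, 90% of 3-fold and 94% of 4-fold changes. Of its calls, 4.4% were false. Smaller changes were not simulated. The simulated libraries were independent draws from the fitted model, without the pairing seen in the data, so these rates may not hold for the real libraries. Alternatives were DESeq2 1.42.0, other scalings and filters, the replicate number as a block, each library left out, and the libraries numbered 6 and 7 left out. Exon lengths and coordinates were taken from GENCODE M21 (GRCm38), where all 55 members matched 1 gene, and promoters from RefSeq.

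Libraries with the same number deviated together from their group means in all 7 pairs (correlation across genes 0.203 to 0.541, median −0.125 for different numbers). The numbers in the titles were therefore taken to pair them. Subtracting the group means itself lowers the values for different numbers, so their median is not an independent comparison. No 2 replicates agreed within sampling noise (lowest chi-square per degree of freedom 5.36). Nothing in the labels ties a library to an animal or culture, so the p-values reflect library-to-library spread only, which may be technical.

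Members, gene lists and tests were chosen with earlier results of these data known. Every member is accounted for. Values per group were given for the members called, those called with the block, and the 10 with the highest level per kb. They were also given for Ctnnb1, Lrp5, Lrp6, Axin2, Lgr5 and the Tcf/Lef genes. Not all came with their own fold change: Fzd3, Fzd7 and Tcf7l1 were given by range. Other pathway genes were named where called, up to 6 per list. Further ones (Ndp, Frzb, Wls, Gsk3b, Apc, Tnks, Btrc, Dact1, Dact2, Myc, Ccnd1), as well as Dkk2, Wnt2, Wnt3a and Wnt11, were named after their values were seen.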

Additional observations from a re-analysis of the deposited data

Results flagged for a closer look

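In 81 sets of 7 values tested (a member or a marker sum in 1 group), 9 held a library far from the other 6. For independent, normally distributed values chance alone flags about 1 set in 20. Some of these sets hold few reads or are skewed, and all sets of a group share their libraries, so that rate is only a rough guide. Negative 3 accounted for 4 of them. It had 1.38 CPM of Dkk2, against 0 to 0.211 CPM in the other negative libraries, and 2.22 CPM of Wnt11, against 0 to 0.278 CPM. Its markers of stellate cells, pericytes and fibroblasts summed to 1477 CPM (16.5 to 76.2 CPM in the others), and its beta cell markers to 104639 CPM (137522 to 155937 CPM in the others).

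Positive 1 accounted for 3. It had 2.49 CPM of Dkk3, against 0.382 to 1.27 CPM in the other positive libraries, and 885.6 CPM of Ctnnb1, against 984.5 to 1040 CPM. Its acinar markers summed to 980 CPM, against 33.5 to 255 CPM. Positive 7 had 1.79 CPM of Dkk2, against 0.414 to 0.800 CPM in the other positive libraries. Negative 1 had 6.66 CPM of Tcf7l1, against 2.58 to 3.86 CPM in the other negative libraries.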

How the results depend on the processing

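The 5 calls of Fzd4, Fzd5, Wnt9a, Wnt4 and Wnt5b held under both other scalings, both other filters, DESeq2, the block and each library left out. Those of Fzd5 (0.30) and Wnt9a (0.93) ended without the 4 libraries numbered 6 and 7, which leaves 5 libraries a group. With the replicate block, which uses the pairing by number, calls numbered 3200 over all genes (1930 higher, 1270 lower), 10 among members (7 higher) and 23 among other pathway genes (13 higher, 10 lower); it ended none of the 5 member calls. DESeq2 called 2079 of 31875 genes (1602 higher, 477 lower) and 17 other pathway genes (5 lower). Without the libraries numbered 6 and 7, 581 of 16345 genes were called (536 higher, 45 lower), 3 members (1 higher) and 5 other pathway genes (5 higher, 0 lower). Leaving out single libraries gave 965 to 1883 genes (825 to 1267 higher, 140 to 616 lower), 5 or 6 members, and 7 to 19 other pathway genes (5 to 12 higher, 2 to 7 lower). The lower calls numbered 616 without negative 3 and 140, 160 and 162 without positive 6, 3 and 7. Pathway calls numbered 19 without negative 3 (7 lower) and 7 without positive 6 or 7.

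Among the 24 tested members, signs turned only for 4 that were not called and lay near 0. Wnt11, too low for the test, was −1.46 without a filter (adjusted p = 0.55 by edgeR) and 0.40 by DESeq2 (adjusted p = 0.88). Fzd1 was 0.0083 with the block and 0.00086 without scaling. Lrp5 was −0.0085 without a filter and −0.0012 with at least 1 CPM in 7 libraries. With single libraries left out, Fzd1 ran from −0.0895 to 0.0930, Lrp5 from −0.0918 to 0.0802, Wnt5a from −0.130 to 0.0450 and Tcf7l1 from −0.0457 to 0.268. The cause was not tested. Members of few reads, 27 in all, were below the depth at which the test was run.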
